A study of Mus musculus with 8 samples.

Results

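The collagen genes were read from RNA-Seq of islets in which β cells did or did not express NICD, the part of the Notch1 receptor that is released into the cell and switches on Notch target genes. A gene was taken as a collagen if its symbol in the count table consisted of Col, a number, the letter a and a number. This gave 44 genes among 32531 gene symbols, and they were sorted into 11 fibrillar chains, 8 basement membrane chains (types IV, XV and XVIII) and 25 other chains. The 4 controls carried RIP-Cre and Rosa26-rtTA without tetO_NICD, and the 4 β-tetO-NICD mice, whose samples are called NICD libraries, carried all 3 transgenes. All mice drank Dox for 8 weeks and had a mixed strain background of C57BL/6J with 129X1/SvJ and BALB/c, and their ages were not given with the samples. The RIP-Cre transgene, driven by an insulin gene promoter, limits transgene activation to cells in which that promoter has been active. Islets were isolated by collagenase digestion and sequenced whole, and they therefore include endothelial, stellate and other cells besides endocrine cells. In such bulk samples, fewer cells of a type and less RNA per cell cannot be told apart.

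Collagens are matrix proteins of 3 chains wound into a triple helix. Fibrillar collagens (types I, III and V among them) form the banded fibrils of connective tissue and come mainly from fibroblasts and stellate cells. Type IV collagen forms the sheet-like network of basement membranes, which in islets surrounds the capillaries and is made largely by endothelial cells, since β cells lay down little basement membrane of their own. The other chains include the beaded filaments of type VI, the FACIT collagens, which sit on the surface of fibrils, and collagens that span the cell membrane.

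The libraries held between 21701223 and 26413146 counts. Notch1, from which the NICD transgene is made, was at 41.6 to 65.0 CPM (read counts divided by the TMM-normalized library size) in controls. In NICD libraries it was at 574 to 1322 CPM. Counts per gene symbol do not tell reads of the transgene from those of the mouse's own Notch1. Although the study's methods describe islets from males for gene expression, 5 of the 8 libraries had at most 1 count of the Y-linked gene Eif2s3y. Controls 2 and 4 and NICD library 5 had 1300 to 1527 counts of it. The columns of the NICD group are numbered 1, 2, 4 and 5, and the last pair could be assigned to the group but not to a mouse. Islet endocrine markers made up 177200 to 240400 CPM in controls and 140300 to 248200 CPM in NICD libraries, and acinar markers 41040 to 81600 CPM and 34390 to 123600 CPM.

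The upstream sequences of the collagen genes that passed the test are shown first, because 2 of these genes rose and 1 fell in the same islets. RefSeq promoter windows (GRCm38.p6, 250 bases before to 50 after the start of the gene) were found for 35 of the 44 collagens. Only the longest stretch before the RefSeq start that held no GENCODE M21 exon is printed, 5′ to 3′ on the strand of the gene. The stretch of Col27a1 lies before its RefSeq start but inside the GENCODE M21 gene, which begins at 63214004. The fourth sequence is the whole interval between the starts of Col4a4 and Col4a3, which are transcribed away from each other. Capitals mark the GC box, GGGCGG on either strand.
Col9a2, chr4:121039316-121039384, plus strand: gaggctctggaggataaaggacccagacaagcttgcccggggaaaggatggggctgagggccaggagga
Col27a1, chr4:63215162-63215411, plus strand: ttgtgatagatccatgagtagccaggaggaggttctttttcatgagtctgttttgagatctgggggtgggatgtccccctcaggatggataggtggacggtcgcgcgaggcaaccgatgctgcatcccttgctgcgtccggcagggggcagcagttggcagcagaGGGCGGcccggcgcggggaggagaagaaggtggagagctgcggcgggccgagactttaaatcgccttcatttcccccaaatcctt
Col6a6, chr9:105828161-105828335, minus strand: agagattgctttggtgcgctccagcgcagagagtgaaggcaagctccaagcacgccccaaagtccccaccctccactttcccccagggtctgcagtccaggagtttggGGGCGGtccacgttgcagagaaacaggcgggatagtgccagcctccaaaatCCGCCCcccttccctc
Col4a4 to Col4a3, chr1:82586850-82586920, minus strand: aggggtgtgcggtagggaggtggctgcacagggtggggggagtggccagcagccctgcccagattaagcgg

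On both strands of the full windows, 3 motifs were searched, namely GTGGGAA, the core recognised by RBPJ, through which NICD acts on DNA, GGGCGG, and the TATA box TATAAA. The letters GTGGGAA were found in 2 of 38 collagen windows, those of Col10a1 and Col4a5 (5.26%), against 6.38% of all 32851 windows. GGGCGG was found in 23 of the 38 (60.5%) against 35.7% of all windows, and TATAAA in 5 (13.2%) against 13.6%. The windows of Col9a2, Col27a1 and Col6a6 each held GGGCGG and none held the other motifs, which says only that those letters are not in these windows.

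Of the 44 collagens, 37 had at least 10 counts in at least 4 libraries and were tested. In edgeR's quasi-likelihood test over 15082 genes, 3 of the 37 passed an adjusted p of 0.05, beside 6.76% of all tested genes. Col9a2 and Col27a1 were higher in β-tetO-NICD islets (4.19% of all tested genes were higher) and Col6a6 was lower (2.57% were lower). The share of collagens called was thus close to that of all genes. At an unadjusted p under 0.05, 9 of the 37 would be counted, beside 31.6% of all genes. The groups did not overlap for 4 collagens, Col9a2, Col27a1 and Col26a1 above the controls and Col11a1 below them, beside 16.1% of all tested genes. The log2 fold change was positive for 13 of the 37 with a median of -0.17, but for 24 with a median of 0.25 when each library was corrected for transcript length, and for 22 with a median of 0.17 without control 2. The median over all tested genes was 0.0007.

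**Figure D1:**
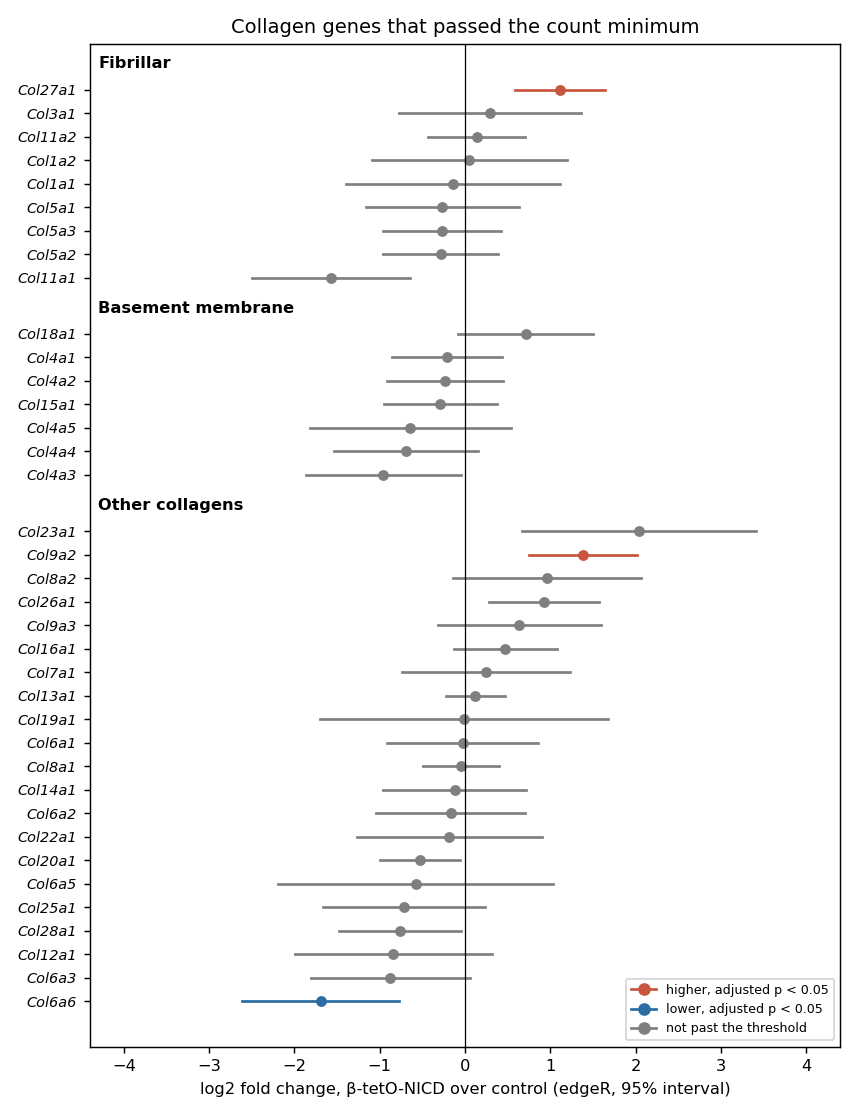
The log2 fold change of each of the 37 tested collagen genes (β-tetO-NICD over control, x axis) is plotted with its 95% interval from edgeR, grouped by class. Col27a1 (1.11) and Col9a2 (1.38), in orange, lie above 0, Col6a6 (-1.69), in blue, lies below it, and the 34 grey genes did not pass the threshold.

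Col9a2 encodes a chain of type IX collagen, a FACIT collagen best known from cartilage, and lies on chr4:121039385-121055322. It was at 8.03, 5.53, 13.3 and 7.47 CPM in controls 1 to 4 and at 24.4, 28.0, 21.9 and 15.3 CPM in NICD libraries 1, 2, 4 and 5. Every NICD library was above every control. The log2 fold change was 1.38 ± 0.28 (SE, n = 4 per group, 95% interval 0.75 to 2.02, edgeR adjusted p = 0.0213), a 2.61-fold rise. Its partner chain Col9a3 was at a mean of 0.527 CPM in controls and 0.821 CPM in NICD libraries (log2 fold change 0.63 ± 0.43, edgeR adjusted p = 0.314), and the remaining chain, Col9a1, had too few counts to be tested. Per kilobase of transcript, Col9a2 was at 2.93 ± 1.13 CPM (SD, n = 4) in controls and 7.67 ± 1.83 in β-tetO-NICD islets, where it had rank 5 among the collagens.

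Col27a1 encodes a fibrillar collagen with a short helix, found in developing cartilage among other tissues, and lies on chr4:63214004-63334991. The controls were at 6.27, 8.87, 8.59 and 12.6 CPM and the NICD libraries at 14.2, 21.7, 19.6 and 23.1 CPM. The groups did not overlap, and control 4 was nearest to the β-tetO-NICD range. The log2 fold change was 1.11 ± 0.24 (SE, n = 4 per group, 95% interval 0.58 to 1.64, edgeR adjusted p = 0.0252), a 2.16-fold rise.

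Col6a6 encodes a long chain of type VI collagen, the beaded filament that links cells to the matrix around them, and lies on chr9:105687809-105828160. It was at 119.7, 103.7, 62.4 and 132 CPM in controls and at 65.2, 18.9, 24.9 and 20.2 CPM in NICD libraries. NICD library 1 lay just above control 3, so that the groups overlapped at this pair, and the 3 other NICD libraries were well below all controls. The log2 fold change was -1.69 ± 0.41 (SE, n = 4 per group, 95% interval -2.62 to -0.77, edgeR adjusted p = 0.0411), a 3.23-fold fall. Without NICD library 1 it was -2.29 (edgeR adjusted p = 0.00106), in a fit that called 33.2% of all genes, against 6.76% with all libraries.

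Each of these calls was lost in some fits that left out 1 library. No direction changed, which for Col9a2 and Col27a1 follows from groups that do not overlap. Col9a2 missed the threshold without control 1, 2 or 4 or without NICD library 2 or 4 (adjusted p up to 0.0772). Col27a1 missed it without control 1, 2 or 3 or NICD library 2, 4 or 5 (up to 0.0855), and Col6a6 without control 1, 2 or 4 or NICD library 2, 4 or 5 (up to 0.126).

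**Figure D2:**
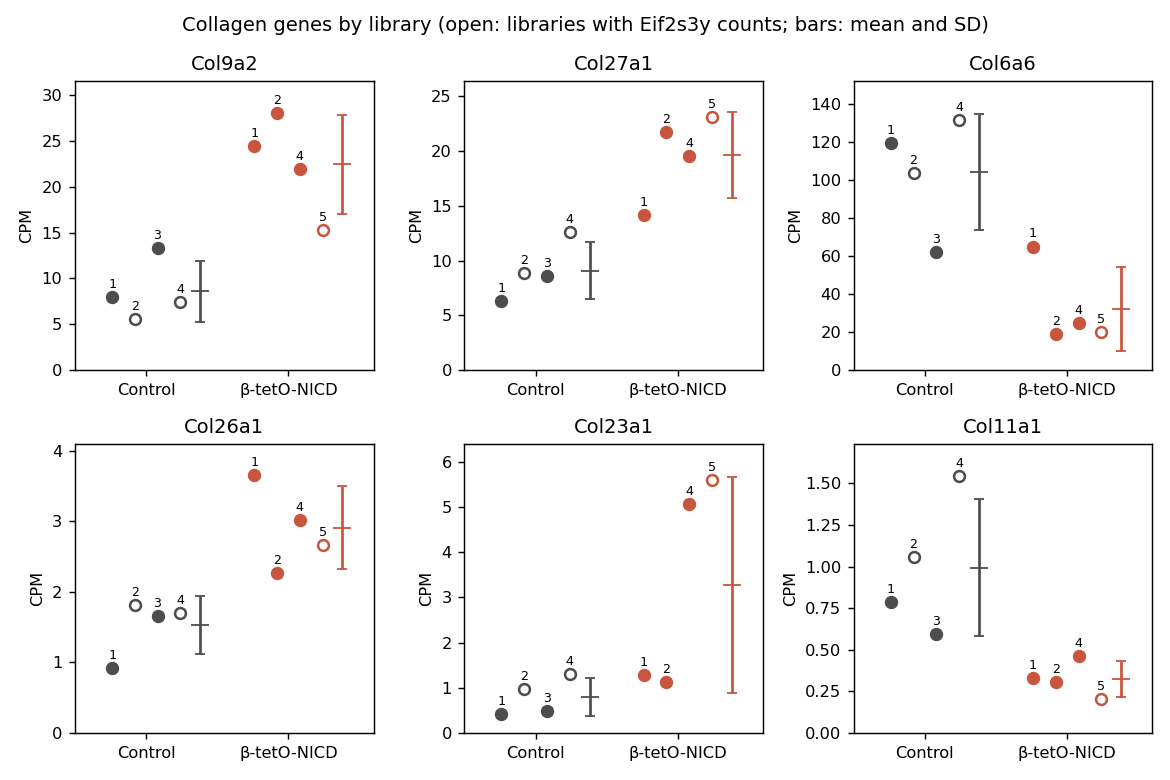
Each panel plots the CPM of a collagen gene (y axis, from 0) in the 4 control and 4 NICD libraries, numbered, with the mean and SD at the side; open points are libraries with Eif2s3y counts. The groups are apart for Col9a2, Col27a1, Col26a1 and Col11a1, touch at 1 pair for Col6a6, and in Col23a1 the NICD libraries 4 and 5 (5.08 and 5.59 CPM) stand above all others.

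Just outside the threshold were 3 collagens chosen after their values were seen. Col11a1, a minor fibrillar chain that helps to nucleate fibrils, was at 0.784, 1.06, 0.594 and 1.54 CPM in controls and at 0.333, 0.306, 0.465 and 0.202 CPM in NICD libraries. Its groups did not overlap (log2 fold change -1.57 ± 0.41, edgeR adjusted p = 0.0521), at 4 to 14 counts in each NICD library. Col23a1, a membrane-spanning collagen, was at 0.415, 0.971, 0.475 and 1.30 CPM in controls and at 1.28, 1.14, 5.08 and 5.59 CPM in NICD libraries. Libraries 4 and 5 were far above the rest, and libraries 1 and 2 lay below control 4 (2.04 ± 0.62, edgeR adjusted p = 0.0713). Col26a1 was at 0.922 to 1.82 CPM in controls and 2.27 to 3.66 CPM in NICD libraries, without overlap (0.92 ± 0.29, edgeR adjusted p = 0.0779). DESeq2 called these 3 in addition to the 3 above, while it called 18.2% of all genes, and the fit with the length offset added Col23a1 alone (4.13% of all genes). The fit with the acinar score as a covariate also added Col23a1 (edgeR adjusted p = 0.0409, 9.12% of all genes), and it passed with Eif2s3y status as a covariate (0.0432, 4.91% of all genes).

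Among the fibrillar collagens, 9 of 11 were tested, Col27a1 rose, and the median log2 fold change of the 9 was -0.14 with 4 positive. This median turned to 0.38 with the length offset (8 positive), 0.30 without control 2 (7 positive), 0.14 with limma-voom and 0.14 with the replicate block. It was 0.18 with Eif2s3y status as a covariate (6 positive) and 0.95 over the 8 chains tested in the 5 libraries without Eif2s3y counts. The major fibrillar chains varied widely among controls, and Col1a1 and Col3a1 varied little among NICD libraries. Col1a1, a chain of type I collagen, was at 14.1, 88.2, 10.01 and 35.2 CPM in controls and at 34.1, 31.5, 35.4 and 33.1 CPM in NICD libraries. Control 2 was far above and controls 1 and 3 far below the narrow β-tetO-NICD range (log2 fold change -0.14 ± 0.56, 95% interval -1.39 to 1.12, edgeR adjusted p = 0.878). Its partner Col1a2 was at 28.3, 137.4, 21.1 and 60.6 CPM in controls and at 56.5, 55.0, 54.5 and 90.6 CPM in NICD libraries (0.05 ± 0.51, edgeR adjusted p = 0.953). Col3a1, the chain of type III collagen, was at 50.2, 226.9, 38.3 and 78.4 CPM and at 126.4, 128.4, 109.1 and 119.9 CPM (0.30 ± 0.48, 95% interval -0.77 to 1.36, edgeR adjusted p = 0.683). In all 3 genes control 2 was the highest library and control 3 the lowest.

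The type V chains, which are built into type I fibrils and limit their width, did not pass the test. Col5a1, Col5a2 and Col5a3 had log2 fold changes of -0.27 ± 0.40, -0.29 ± 0.30 and -0.27 ± 0.31 (edgeR adjusted p = 0.66, 0.514 and 0.552). Their control levels were 4.51 to 17.7 CPM for Col5a1, 12.5 to 28.6 for Col5a2 and 7.12 to 16.2 for Col5a3, and the β-tetO-NICD levels were 6.20 to 8.89, 12.9 to 22.2 and 5.79 to 10.6 CPM. The β-tetO-NICD values lay within the span of the controls for Col5a1 and Col5a2, and reached below it for Col5a3.

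Summed over the class, fibrillar collagens were at 130.7, 528.6, 107.6 and 238.4 CPM in controls (251.3 ± 193.4, SD, n = 4) and at 272.7, 270.1, 264.7 and 297.4 CPM in NICD libraries (276.2 ± 14.5). The coefficient of variation was 77.0% among controls and 5.26% among NICD libraries. Without control 2 the control mean was 158.9 CPM and its SD was 69.8 CPM. In the fit without control 2, Col3a1 alone of the collagens was called (1.13, edgeR adjusted p = 0.0419, with 3.37% of all genes called), and Col9a2, Col27a1 and Col6a6 were not. Control 2 was the highest control for 21 of the 37 collagens and control 4 for 12.

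Although Pdpn, Thy1, Fbln2 and Pi16 were highest among controls in control 4, stellate cell and fibroblast markers as a sum were highest in control 2. Their sum was 424.8 to 890.9 CPM in controls and 537.3 to 903.3 CPM in NICD libraries, and 2 of 20 markers rose, Mfap4 (2.36 ± 0.42, edgeR adjusted p = 0.0119) and Pi16 (1.52 ± 0.26, edgeR adjusted p = 0.0100), both known from fibroblasts. Of all tested genes, 4.19% rose. Of the 20, 16 had a positive log2 fold change, the list median was 0.64, 8 had an unadjusted p under 0.05 (31.6% of all genes) and DESeq2 called 5 (18.2% of all genes). The most abundant of the list, Gsn and Rgs5, had log2 fold changes of 0.15 and 0.02. The part of these cells in the fibrillar values was not tested.

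**Figure D3:**
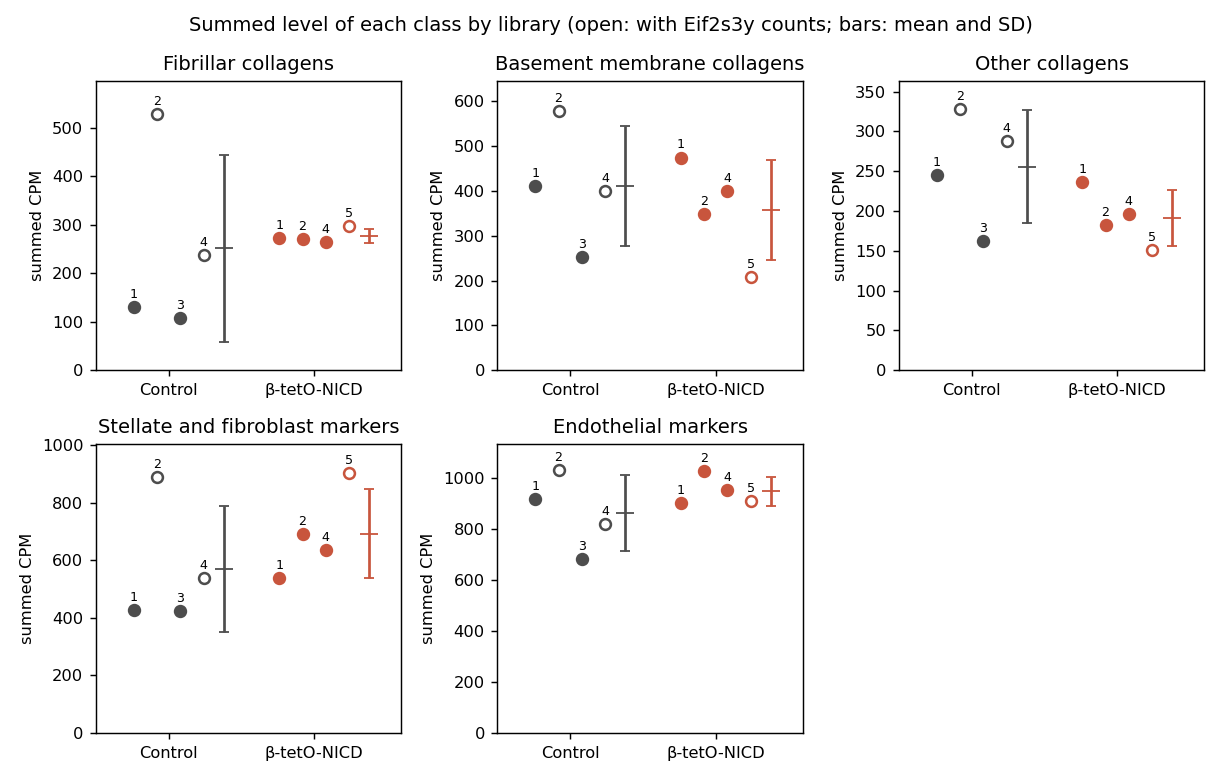
Summed CPM (y axis, from 0) of the fibrillar, basement membrane and other collagens and of stellate and endothelial markers in each library, numbered, with the mean and SD at the side; open points are libraries with Eif2s3y counts. The fibrillar sum spans 107.6 to 528.6 CPM in controls and 264.7 to 297.4 CPM in β-tetO-NICD islets, and control 2 is the highest control in all 5 panels.

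Among the basement membrane collagens, 7 of 8 were tested and edgeR called 0, beside 6.76% of all genes. At an unadjusted p under 0.05 there was 1, Col4a3 (31.6% of all genes), DESeq2 also called 0 (18.2%), and the median log2 fold change was -0.29 with 1 positive. It was -0.16 with the length offset (3 positive) and -0.02 without control 2 (2 positive), and turned to 0.31 in the 5 libraries without Eif2s3y counts (6 positive). Col4a1 and Col4a2 form the ordinary network of type IV collagen, and Col4a1 was the most abundant collagen per kilobase of transcript in both groups. Col4a1 was at 32.4 ± 9.97 CPM per kilobase (SD, n = 4) in controls and 28.0 ± 8.73 in β-tetO-NICD islets. In controls it was followed by Col4a2 (20.8 ± 6.92), Col3a1 (17.7 ± 15.7), Col6a6 (11.9 ± 3.46) and Col1a2 (11.6 ± 9.95), neighbours whose SDs overlap. In β-tetO-NICD islets the order was Col3a1 (21.7 ± 1.56), Col4a2 (17.7 ± 5.81), Col1a2 (12.0 ± 3.30) and Col9a2 (7.67 ± 1.83), while Col6a6 was at 3.68 ± 2.51.

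Col4a1 was at 228.3, 294.2, 135.0 and 200.3 CPM in controls and at 246.3, 178.4, 205.8 and 109.1 CPM in NICD libraries. Library 5 was the lowest of all, and the other NICD libraries lay within the controls (log2 fold change -0.21 ± 0.29, 95% interval -0.85 to 0.43, edgeR adjusted p = 0.617). Col4a2 was at 131.0, 191.8, 82.7 and 131.5 CPM and at 149.4, 119.7, 127.1 and 61.5 CPM (-0.23 ± 0.30, edgeR adjusted p = 0.611). Endothelial markers summed to 682.2 to 1032 CPM in controls and 902.2 to 1026 CPM in NICD libraries, and edgeR called 0 of 14 beside 6.76% of all genes (5 at an unadjusted p under 0.05 beside 31.6%, and 1 by DESeq2 beside 18.2%), with log2 fold changes of 0.51 for Plvap and -0.24 for Kdr, the most abundant of them.

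The chains of the specialised type IV networks were less abundant. Col4a3 was at 5.35, 8.66, 3.09 and 6.66 CPM in controls and at 5.51, 2.62, 2.19 and 1.91 CPM in NICD libraries, where library 1 was within the control range and the others below it (-0.96 ± 0.41, edgeR adjusted p = 0.145). Without NICD library 1, Col4a3 was called (-1.40, edgeR adjusted p = 0.0175), in a fit that called 6 collagens and 33.2% of all genes. Col4a4 and Col4a5 had log2 fold changes of -0.69 ± 0.38 and -0.64 ± 0.53 (edgeR adjusted p = 0.226 and 0.405), and Col4a6 had too few counts. Col15a1 and Col18a1, whose products lie in basement membranes and carry the endostatin-like domain, had values of -0.29 ± 0.29 and 0.71 ± 0.35 (edgeR adjusted p = 0.506 and 0.194). Col18a1 was at 12.3, 17.6, 6.96 and 19.6 CPM in controls and at 29.2, 17.9, 31.5 and 13.6 CPM in NICD libraries, with libraries 1 and 4 above every control.

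Among the 25 other collagens, 21 were tested, Col9a2 rose, Col6a6 fell, and the median log2 fold change was -0.05 with 8 positive. It turned to 0.24 with the length offset (13 positive), 0.26 without control 2 (13 positive), 0.05 with limma-voom, 0.03 with upper-quartile factors and 0.03 with the replicate block. It was 0.02 with Eif2s3y status as a covariate (12 positive) and 0.68 in the 5 libraries without Eif2s3y counts (14 positive). All 5 tested type VI chains had a negative log2 fold change in edgeR's fit, with a median of -0.58, although Col6a1 was at 0.04 with upper-quartile factors and at 0.18 with the length offset. Without control 2, Col6a1 (0.58), Col6a2 (0.44) and Col6a5 (0.26) were positive, and in the 5 libraries without Eif2s3y counts Col6a3 (0.25) was positive as well as these 3 (0.96, 0.75 and 0.68). Col6a1 was at 13.7, 48.7, 11.7 and 22.0 CPM in controls and at 23.3, 23.9, 26.4 and 20.4 CPM in NICD libraries, and Col6a2 at 11.5, 35.3, 8.51 and 14.6 CPM and at 15.9, 17.1, 17.3 and 11.9 CPM. These chains, which with a longer chain form the ordinary type VI molecule, showed the wide controls and narrow β-tetO-NICD range of Col1a1 (-0.03 ± 0.40 and -0.17 ± 0.39, edgeR adjusted p = 0.965 and 0.783). Col6a3 was at 4.796, 13.2, 5.07 and 16.6 CPM in controls and 7.03, 4.28, 6.21 and 4.08 CPM in NICD libraries (-0.87 ± 0.42, edgeR adjusted p = 0.178), and Col6a5 at -0.58 ± 0.72 (edgeR adjusted p = 0.588). In controls, Col13a1, a membrane-spanning collagen, varied least among the abundant members of the class. It was at 17.9 to 23.6 CPM in controls and 19.4 to 25.6 CPM in NICD libraries (0.12 ± 0.15, 95% interval -0.22 to 0.47, edgeR adjusted p = 0.596). Among NICD libraries, Col6a1 (23.5 ± 2.43 CPM, SD) varied less than Col13a1 (21.4 ± 2.86).

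The remaining 12 tested collagens had log2 fold changes between -0.84 and 0.96, 4 of them positive, and edgeR adjusted p between 0.131 and 0.993. Control means of these genes were 0.916 to 21.9 CPM. The 7 collagens that were not tested (Col2a1, Col4a6, Col6a4, Col9a1, Col10a1, Col17a1 and Col24a1) had between 3 and 58 counts over all 8 libraries and at most 22 in any library. They include the main collagen of cartilage, Col2a1, and that of its hypertrophic zone, Col10a1. All collagens together took 0.0759%, 0.152%, 0.0508% and 0.0975% of the counts in controls and 0.0954%, 0.0773%, 0.0981% and 0.0585% in NICD libraries, and the ranges overlapped.

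Ratios of the counts of 2 chains within a library compare partner chains without reference to library size. For 11 pairs, chosen after values were seen, the smallest p that an exact two-sided permutation test over the 70 arrangements can give is 0.0286, and no Benjamini-Hochberg adjusted p was under 0.157. The Col4a2 to Col4a1 ratio was the tightest, at 0.564 to 0.671 in all 8 libraries. These genes overlap head to head by 22 bases on chr8 (Col4a1 chr8:11198423-11312826, minus strand, and Col4a2 chr8:11312805-11449287, plus strand). Col4a4 and Col4a3 are also head to head, 71 bases apart in the interval printed above, and their ratio was 0.725 to 0.966 in controls and 0.811 to 1.41 in NICD libraries (exact permutation p = 0.171). The Col4a3 to Col4a1 ratio was lower in every NICD library (0.0107 to 0.0225) than in any control (0.0230 to 0.0333), as was the Col11a1 to Col11a2 ratio (exact permutation p = 0.0286 and adjusted p = 0.157 for both). Col6a6 and Col6a5 are neighbours on chr9 on the same strand, 27917 bases apart. The Col6a6 to Col6a1 ratio was 8.75, 2.13, 5.32 and 6.01 in controls and 2.80, 0.789, 0.945 and 0.990 in NICD libraries, with library 1 above control 2 (exact permutation p = 0.0571).

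**Figure D4:**
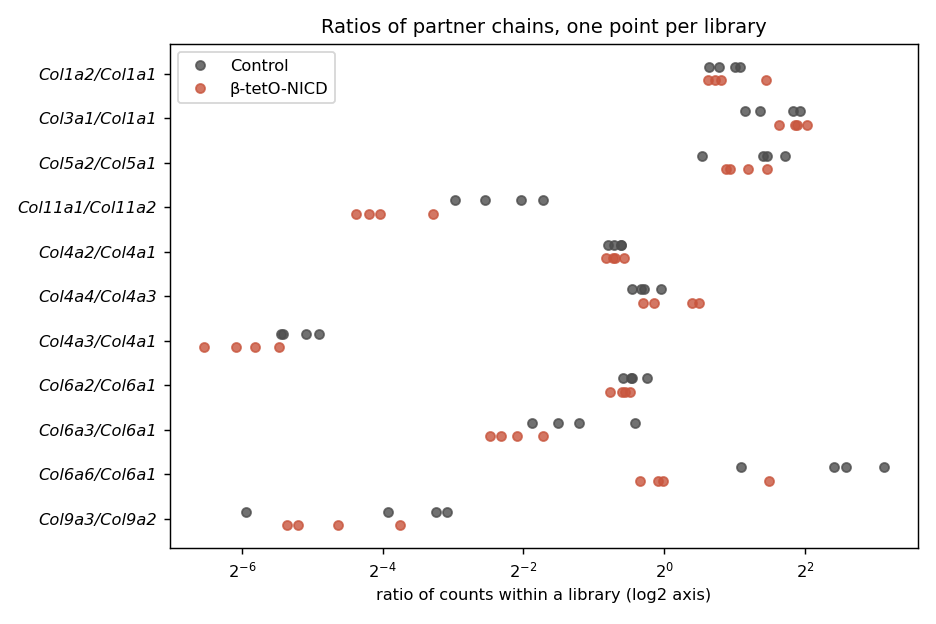
Each point is the ratio of the counts of 2 collagen chains within a library (x axis, log2 scale), for 11 pairs, with controls in grey and NICD libraries in orange. The Col4a2 to Col4a1 ratio stays between 0.564 and 0.671, whereas the groups are apart for Col11a1 to Col11a2 and for Col4a3 to Col4a1.

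Sorted by Eif2s3y counts, the libraries fell into 2 controls and 3 NICD libraries without them and 2 controls and 1 NICD library with them. In the 5 libraries without Eif2s3y counts, 28 of 36 tested collagens had a positive log2 fold change, beside 7305 of all 14455 genes tested there. The 2 controls of this set, controls 1 and 3, had the lowest fibrillar sums of the controls (130.7 and 107.6 CPM). In these 5, edgeR called Col1a1 (1.49, adjusted p = 0.0463) and Col3a1 (1.46, adjusted p = 0.0438) and 0.719% of all genes. Col1a1 was at a mean of 12.1 CPM in controls and 33.7 CPM in NICD libraries there, and at 61.7 CPM and 33.1 CPM in the libraries with Eif2s3y counts. The groups were apart in opposite directions in the 2 sets for 6 of the 37 collagens, Col1a1, Col5a1, Col6a1, Col6a2, Col14a1 and Col18a1, beside 4.83% of all tested genes, with a single NICD library in one of the sets. The interaction of genotype and Eif2s3y status had an unadjusted p under 0.05 for 17 of 37 collagens, beside 16.7% of all tested genes, but edgeR's adjusted test called 0 of them and 10 of all 15082 genes, with adjusted p of 0.242 for Col1a1 and 0.246 for Col18a1. With 1 NICD library in the set, Eif2s3y status and that library cannot be told apart.

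The 3 called collagens, which were called on these same libraries, kept their direction in both sets. For Col9a2 and Col27a1 this had to be so, since their groups do not overlap. Without Eif2s3y counts the log2 ratio of the group means was 1.22 for Col9a2, 1.32 for Col27a1 and -1.33 for Col6a6, and with them it was 1.24, 1.11 and -2.54. In the fit restricted to the 5 libraries none of these passed (edgeR adjusted p = 0.138, 0.113 and 0.384). With Eif2s3y status as a covariate, Col9a2 and Col27a1 passed and Col6a6 did not (-1.74, edgeR adjusted p = 0.0737).

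Genes that act on collagen after its synthesis were listed in 4 groups. Their counts stand beside 6.76% of all genes called by edgeR, 31.6% at an unadjusted p under 0.05, 18.2% called by DESeq2 and 7.18% by limma-voom. Of 21 genes for collagen modification and folding, edgeR called 0 (5 at an unadjusted p under 0.05, 3 by DESeq2 and 1 by limma-voom; median log2 fold change 0.03), with -0.17 for P4hb, a subunit of prolyl hydroxylase, and -0.70 for Mia3, which loads procollagen into transport carriers (edgeR adjusted p = 0.476 and 0.0529). Of 10 tested genes for processing and crosslinking, 1 rose and 1 fell. Loxl1, a lysyl oxidase-like enzyme, was at 3.29 to 5.32 CPM in controls and 8.27 to 11.7 CPM in NICD libraries (1.39 ± 0.22, edgeR adjusted p = 0.00646). Bmp1, which removes the carboxyl propeptide of fibrillar procollagens, was at 110.2 to 146.7 CPM in controls and 59.4 to 80.2 CPM in NICD libraries (-0.85 ± 0.15, edgeR adjusted p = 0.0115). Neither gene's groups overlapped, and Tgm2, a crosslinking enzyme, was at 0.09. Of 15 matrix proteins that bind collagen, edgeR called 0 (1 at an unadjusted p under 0.05 and 1 by DESeq2), with log2 fold changes of 0.43 for Sparc and 0.13 for Sparcl1 and a list median of -0.16. Of 8 tested collagen receptors it also called 0 (1 at an unadjusted p under 0.05 and 0 by DESeq2), with -0.04 for Itgb1, -0.26 for Ddr1 and a list median of -0.29.

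Transcript length moved with the libraries. The median longest transcript was 6048 bases for the tested collagens and 3359 bases for all tested genes, and 33 of the 37 collagens were above the latter. Across genes within a library, which are not independent replicates, Spearman's rho between length and the deviation of that library from the mean was 0.42, 0.47, -0.17 and 0.50 in controls and 0.44, -0.52, -0.36 and -0.52 in NICD libraries. It was positive in controls except control 3 and negative in NICD libraries except library 1, the pair at which the groups overlapped for Col6a6. The part of length in the collagen values was tested only through the length offset, under which Col9a2, Col27a1 and Col6a6 remained past the threshold (1.502, 1.36 and -1.42). Among markers of other cells, edgeR called 0 of 9 for Schwann cells (Ngfr -0.08), 0 of 7 for duct (Krt7 -0.08, Spp1 1.25) and 0 of 14 for acinar cells (Ctrb1 0.58, Pnlip 0.53), of which 1, 3 and 1 had an unadjusted p under 0.05 and DESeq2 called 1, 3 and 1 (6.76%, 31.6% and 18.2% of all genes by these counts). In the same fit C1qa rose among 12 macrophage markers (0.95, edgeR adjusted p = 0.0273; Lyz2 was at 0.07), and Hhex among the endocrine markers (1.01, edgeR adjusted p = 0.0436), with -0.56 for Ins2 and 1.44 for Gcg (edgeR adjusted p = 0.295 and 0.0622).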

How the data were processed

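Islet RNA of 4 control and 4 β-tetO-NICD mice was sequenced by the authors as stranded poly(A) libraries. With Kallisto they assigned reads to GRCm38 transcripts and deposited whole-number counts per gene symbol, not normalized. The Kallisto version, annotation and rounding are not given in the sources used here. The deposited table of the authors' own comparison (limma) holds fold changes and p values and was not used. Columns were matched by name, 6 to a mouse and NICD columns 4 and 5 to their group only. Every pair of libraries within a group differed beyond sampling noise.

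Counts were fitted in R 4.3.3 with edgeR 4.0.16 (TMM, glmQLFit, glmQLFTest, no covariate) for genes that reached 10 counts in 4 or more of 8 libraries. The p values were adjusted over all 15082 genes by Benjamini-Hochberg, with a threshold of 0.05. CPM uses TMM-scaled library sizes. Values per kilobase use the longest GENCODE M21 transcript, which also served for the length offset (lowess per library, 97.2% of tested genes matched). Nothing states that replicates are more than separate samples, so p values measure the spread between them. Named genes were the called collagens, the 4 most abundant of each class per kilobase and their tested partner chains, and in each gene list those called and the 2 most abundant. Alternatives were DESeq2 1.42.0, limma-voom (limma 3.58.1), other factors, filters and covariates, a replicate block, and leaving out each library. The covariate for Eif2s3y and its interaction and the chain ratios were added after the data were seen. The script was tested on simulated data. Members, classes and lists were chosen with earlier results of these data known. Some members of the marker lists are not reported here.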

Additional observations from a re-analysis of the deposited data

Results flagged for a closer look

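Within the groups of 4 libraries, the gap between an extreme library and its nearest neighbour was divided by the whole range and held against Dixon's 95% limit. Of 74 groups examined (37 collagens in 2 genotypes), 3 were past the limit, and chance gives about 1 in 20 groups. Col6a6 in β-tetO-NICD islets had a ratio of 0.870, with library 1 (65.2 CPM) above the others (18.9 to 24.9 CPM). Col4a5 in β-tetO-NICD islets had a ratio of 0.840, again with library 1 the highest (3.47 CPM against 1.16 to 1.53 CPM). Col1a2 in β-tetO-NICD islets had a ratio of 0.945, with library 5 (90.6 CPM) above the others (54.5 to 56.5 CPM). The Col1a2 to Col1a1 ratio was 2.73 in library 5 and 1.54 to 1.75 in the other NICD libraries.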

How the results depend on the processing

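Of 37 tested collagens, 3 were called in edgeR's fit (6.76% of all genes) and 6 with DESeq2 (18.2%). DESeq2 called 2 instead of 1 fibrillar and 4 instead of 2 other chains. Limma-voom, median-ratio and upper-quartile factors and both other count minimums called the same 3. Of all genes, limma-voom called 7.18%, median-ratio factors 6.94% and upper-quartile factors 7.68%. The share was 4.49% with no count minimum and 7.56% with 10 counts in every library. Leaving out 1 library at a time gave 0 to 6 collagens, 0 to 2 fibrillar, 0 to 1 basement membrane and 0 to 3 other chains, and the mean share of counts in collagens moved from -0.026 to 0.0076 percentage points (β-tetO-NICD minus control, main value -0.0116). The 0 for all collagens came without control 1 or NICD library 2 or 4 (3.31%, 2.14% and 2.52% of all genes called), and the 6 without NICD library 1 (33.2%). The 5 libraries without Eif2s3y counts gave 2 fibrillar and 0 other calls, beside 0.719% of all genes. The cause was not tested.

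Of the replicate numbers, only 1 and 2 could be tied to a column in both groups, since NICD columns 4 and 5 match no settled mouse, and the correlation of same-numbered deviations was 0.275 and -0.0907, so these are treated as sharing only a number. With the replicate block the same 3 collagens were called, beside 6.43% of all genes.

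Log2 fold changes of named collagens that were not called turned in direction as follows. With the replicate block, Col1a1 was at 0.28, Col6a1 at 0.18 and Col6a2 at 0.029. With limma-voom these were at 0.38, 0.21 and 0.047. Col6a1 was at 0.044 with upper-quartile factors, 0.0014 with 10 counts in every library and 0.060 with the acinar score. With the length offset, Col4a1 was at 0.25, Col4a2 at 0.29, Col1a1 at 0.37, Col5a1 at 0.38, Col5a2 at 0.23, Col5a3 at 0.15 and Col6a1 at 0.18. In the 5 libraries without Eif2s3y counts, Col4a1 was at 0.22, Col4a2 at 0.31, Col15a1 at 0.34, Col4a4 at 0.068, Col4a5 at 0.52, Col1a1 at 1.49, Col5a1 at 0.73, Col5a2 at 0.41, Col5a3 at 0.17, Col6a1 at 0.96, Col6a2 at 0.75, Col6a3 at 0.25 and Col6a5 at 0.68. With Eif2s3y status as a covariate, Col1a1 was at 0.71, Col5a1 at 0.12, Col6a1 at 0.37, Col6a2 at 0.14 and Col6a5 at 0.016. Leaving out 1 library at a time gave -0.46 to 0.023 for Col15a1, -0.23 to 0.82 for Col1a2, -0.45 to 0.77 for Col1a1, -0.26 to 0.58 for Col6a1, -0.41 to 0.071 for Col5a3, -0.49 to 0.30 for Col5a1, -0.39 to 0.44 for Col6a2 and -1.14 to 0.26 for Col6a5, with the highest value of each without control 2.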
